A study of Mus musculus with 5 samples.

Results

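The miR-30 family was followed through 5 mouse testis small RNA libraries. Its members were taken by name from the mature miRNAs in the deposited tag files: mmu-miR-30a, mmu-miR-30b, mmu-miR-30c, mmu-miR-30d and mmu-miR-30e (written below without the mouse prefix), which are 5 of the 593 mature names with a count in any library. All 5 had counts in all 5 libraries. Each member was expressed as a share of the counts of the 5 together, and its level was compared between cell populations.

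All libraries came from testis of C57BL/6 mice. Magnetic beads carrying an antibody to Thy1.2 had split the testis cells by this surface protein, which spermatogonial stem cells carry, the germ cells that both renew themselves and start sperm production. There were 2 libraries of the freshly isolated Thy1+ fraction, enriched for these stem cells, and 2 of the freshly isolated Thy1- fraction, which was depleted of them and enriched for somatic cells. The single culture library came from germ cells grown from the Thy1+ fraction for about 10 passages. Both fractions are mixtures of cell types, and neither the age of the mice nor their number is in the labels. The Thy1- libraries are given the stem cell name in their cell type field, and their group was taken from the titles.

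MicroRNAs are short RNAs cut from hairpin precursors. They bind messenger RNAs mainly through the seed, bases 2 to 8 from the 5′ end, and lower their translation and stability. The miR-30 members share 1 seed and differ further along, and they are known as abundant miRNAs of kidney and heart, from adipocyte differentiation and from repression of the epithelial to mesenchymal transition factor Snai1. Each hairpin yields a member from its 5′ arm, while the 3′ arm gives another mature product, marked here with an asterisk, which has a seed of its own.

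The sequences below, from RefSeq (build GRCm38.p6), show what the members share and where they part, with the seed in capitals. The table matched 3 of the 5 members, 4 of the 5 other arms, and miR-384-5p.
miR-30a: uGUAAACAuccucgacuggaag
miR-30c: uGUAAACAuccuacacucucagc
miR-30e: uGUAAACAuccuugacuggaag
miR-384-5p: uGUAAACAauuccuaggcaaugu
Of 1679 mature mouse miRNAs in the table, these 4 carry the seed GUAAACA. With positions counted from 1 at the 5′ end, miR-30a and miR-30e differ by C13U alone. miR-30a and miR-30c are identical over their first 12 bases and differ at 5 of the 22 compared. miR-384-5p had only 1 to 3 counts in each library, so the counts with this seed were those of the miR-30 members.

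The other arms, shown because their balance with the members is described further on, fall into a pair of seed groups.
miR-30a*: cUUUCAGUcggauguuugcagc
miR-30e*: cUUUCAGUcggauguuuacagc
miR-30c-1*: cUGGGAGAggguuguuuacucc
miR-30c-2*: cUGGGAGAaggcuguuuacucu
The other arms of miR-30a and miR-30e differ by G18A alone. miR-30c is made identically by a pair of hairpins, and its other arms, which differ between them at 3 positions, tell which hairpin was processed.

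The hairpins of miR-30a, miR-30c and miR-30e lie in clusters. Those of miR-30b and miR-30d, whose sequences were not matched, were not placed here. In GRCm38, Mir30a is on chromosome 1 at 23272269 to 23272339 on the plus strand and overlaps no other gene of GENCODE M21. Mir30c-2 follows 19.4 kb downstream (chromosome 1, 23291701 to 23291784, plus strand), in an exon of the long noncoding RNA gene Gm27028. Mir30c-1 (chromosome 4, 120769534 to 120769622) and Mir30e (chromosome 4, 120772606 to 120772697) lie 2.98 kb apart on the minus strand. Both are in introns of Nfyc, a subunit gene of the transcription factor NF-Y, in its own direction. Genes that the annotation types as miRNA were left out of this search. The Mir30e hairpin shows the arrangement, with the mature arms in capitals, miR-30e first.
Mir30e: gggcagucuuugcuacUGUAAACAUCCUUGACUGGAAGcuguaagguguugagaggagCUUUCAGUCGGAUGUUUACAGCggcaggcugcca

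The files hold reads placed on miRNAs, 937002 and 947687 counts in the Thy1+ libraries, 2548234 and 4909753 in the Thy1- libraries and 5110007 in the culture. Levels are counts per 1000000 miRNA counts (CPM, counts scaled to the library total). The cell type marker lists were chosen with earlier results of these data known, so their sums describe the libraries and test nothing. Of these lists, the Thy1+ germ cell list (12 names) summed to 54572 and 64742 CPM in Thy1+, 5035 and 2558 in Thy1- and 23188 in the culture. White blood cell miRNAs (5 names) summed to 14904 and 26540 CPM in Thy1+ against 1346 to 2017 in Thy1- and 937 in the culture. The 3 red blood cell miRNAs summed to 179 to 252, 1344 to 1475 and 12.5 CPM in the same order. The gonadal miR-202 arms summed to 1138 and 2205 CPM in Thy1+, 18584 and 3712 in the Thy1- replicates and 173 in the culture. The mesenchymal list (6 names) lay between 27211 and 64977 CPM in all libraries, the endothelial miR-126 arms between 562 and 2605, the epithelial list (5 names) between 80.4 and 1293, and the muscle list (4 names) between 311 and 1677. No marker name was at 0 except 1 muscle name in Thy1+ replicate 1 and 2 in the culture, and 1 germ cell name in Thy1- replicate 2 and in the culture. The part of these cell types in the miR-30 values was not tested. In such mixtures, fewer cells of a type and less of a miRNA per cell cannot be told apart.

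The family as a whole was a small part of every library. It stood at 12685 and 14027 CPM in the Thy1+ libraries, 29677 and 14030 in the Thy1- libraries and 4625 in the culture. Thy1- replicate 1 was the highest, Thy1- replicate 2 was nearly level with Thy1+ replicate 2, and the culture was the lowest. The library with the most miR-30 was also the one with the most miR-202, and whether the cells behind that miR-202 carried the miR-30 counts was not tested. Among the 593 names, the members ranked between 16 and 118 in a library. Read counts of different miRNAs also depend on how well each is ligated and copied, so an order of members is an order of reads.

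Among its members, miR-30a, the member with the largest count of any library, stood at 2633 and 3431 CPM in Thy1+, 9737 and 4494 in Thy1- and 1312 in the culture. Every Thy1- value lay above every Thy1+ value, and the culture lay below both. miR-30e, its neighbour in sequence, followed the same order of groups, with 2671 and 3320 CPM in Thy1+, 6427 and 3869 in Thy1- and 1257 in the culture. miR-30d stood at 3985 and 3633 CPM in Thy1+, 6700 and 3624 in Thy1- and 1017 in the culture. Its Thy1- replicate 2 lay just under both Thy1+ libraries, so the fresh groups overlapped. miR-30c, with 2346 and 1822 CPM in Thy1+, 4099 and 1589 in Thy1- and 560 in the culture, overlapped in the same way. miR-30b, the scarcest member in 4 of 5 libraries and level with miR-30c in Thy1+ replicate 2, stood at 1050 and 1822 CPM in Thy1+, 2714 and 453 in Thy1- and 479 in the culture. Its Thy1- replicates differed more from each other than either did from the Thy1+ libraries, and replicate 2 lay below the culture.

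**Figure D1:**
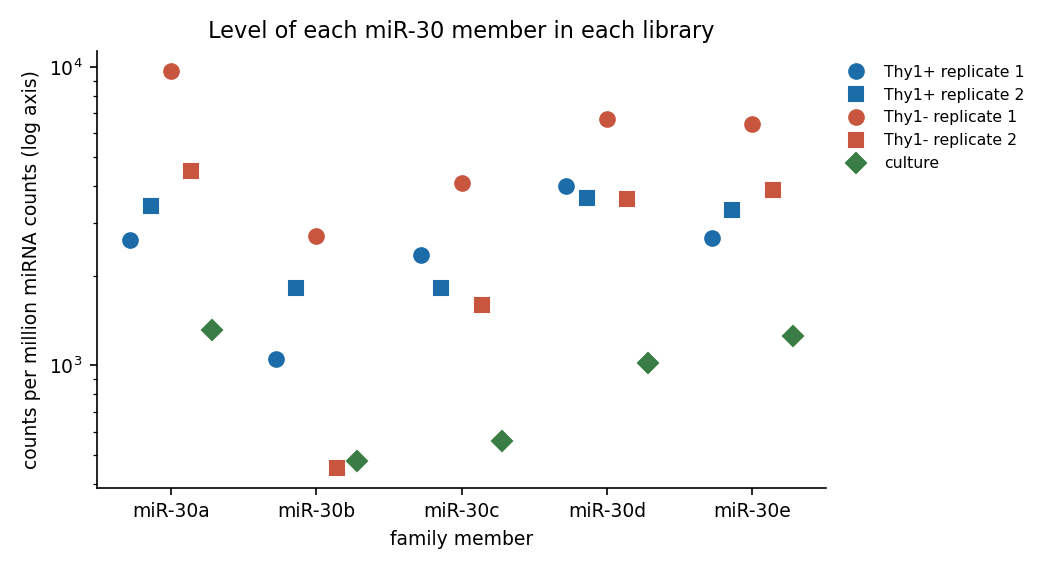
Level in CPM (log axis) of the 5 miR-30 members (horizontal axis), 1 point per library, with circles and squares for replicates 1 and 2 and diamonds for the culture. Thy1- replicate 1 is the highest point for every member, and the culture is the lowest for all but miR-30b, where Thy1- replicate 2 is lower at 453 CPM.

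The first question was how the family total divides among its members, a measure that does not depend on scaling between libraries. miR-30a made up 20.8% and 24.5% of the family in Thy1+, 32.8% and 32.0% in Thy1- and 28.4% in the culture (95% Clopper-Pearson interval 27.8% to 29.0%). It was the largest member in both Thy1- libraries and in the culture, and its Thy1+ and Thy1- values did not overlap. miR-30d made up 31.4% and 25.9% in Thy1+, where it was the largest member in both libraries, 22.6% and 25.8% in Thy1- and 22.0% in the culture (21.5% to 22.5%). Its groups missed each other narrowly, 25.9% in Thy1+ replicate 2 against 25.8% in Thy1- replicate 2, which is within the counting error of those libraries.

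The remaining members overlapped between the fractions. miR-30e made up 21.1% and 23.7% in Thy1+, 21.7% and 27.6% in Thy1- and 27.2% in the culture (26.6% to 27.7%). miR-30c made up 18.5% and 13.0% in Thy1+, 13.8% and 11.3% in Thy1- and 12.1% in the culture (11.7% to 12.5%). miR-30b made up 8.27% and 13.0% in Thy1+, 9.15% and 3.23% in Thy1- and 10.4% in the culture (9.97% to 10.8%). It was the least steady member, with a highest share 4.02 times its lowest, against 1.31 to 1.63 times for the rest. Counting error was small beside these differences. The widest 95% interval, that of miR-30d in Thy1+ replicate 1, ran from 30.6% to 32.3%, and such an interval covers counting only.

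The group means of miR-30a were 22.6% ± 2.62 in Thy1+ and 32.4% ± 0.551 in Thy1- (SD, n = 2), a difference of -9.81 points. The two-sided exact permutation p was 0.333, the smallest that 2 against 2 libraries allow, and 0.667 when adjusted over the 5 members. For miR-30d the means were 28.7% ± 3.90 and 24.2% ± 2.30 (SD, n = 2), with the same exact p and adjusted p. For miR-30b the difference was 4.44 points, for miR-30c 3.17 and for miR-30e -2.26, each with an exact permutation p of 0.667, and an adjusted p of 0.667. No share difference could pass a threshold of 0.05 in this design.

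**Figure D2:**
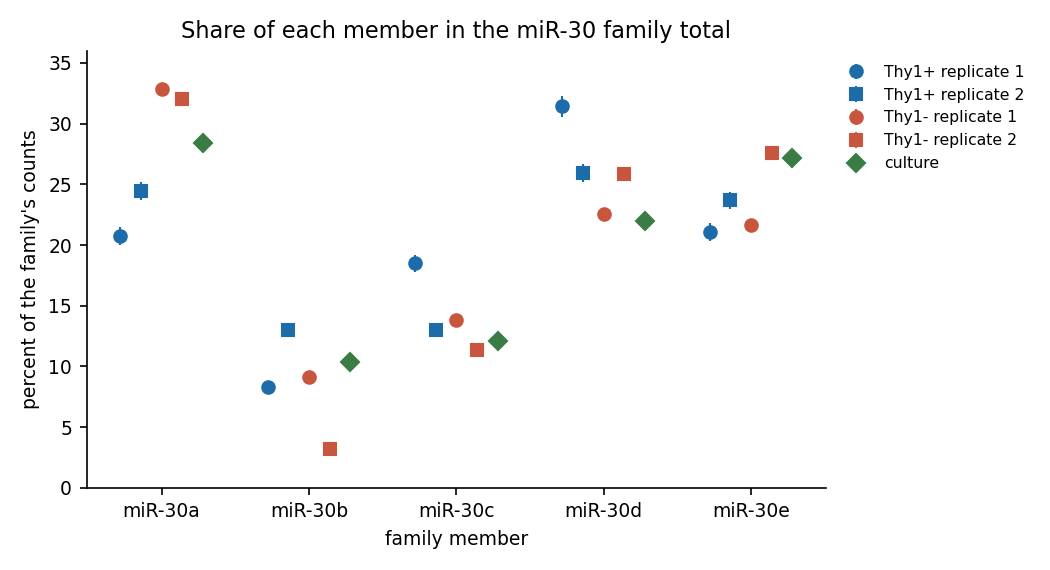
Percent of the miR-30 family's counts (vertical axis) taken by each member (horizontal axis) in each library, with 95% Clopper-Pearson intervals, most of them within the symbols. The Thy1- points of miR-30a, 32.8% and 32.0%, lie above the Thy1+ points, 20.8% and 24.5%, and the miR-30b points spread from 3.23% to 13.0%.

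Ratios between members showed the same movement of miR-30a. The log2 ratio of miR-30a to miR-30d was -0.60 and -0.08 in Thy1+, 0.54 and 0.31 in Thy1- and 0.37 in the culture, so miR-30a was the lower of the pair in both Thy1+ libraries and the higher elsewhere. miR-30a to miR-30e was -0.02 and 0.05 in Thy1+, where they were nearly level, 0.60 and 0.22 in Thy1- and 0.06 in the culture. miR-30a to miR-30c was 0.17 and 0.91 in Thy1+, 1.25 and 1.50 in Thy1- and 1.23 in the culture. Of the 10 pairs of members, 5 had ratios that did not overlap between Thy1+ and Thy1-: the 4 pairs with miR-30a, and miR-30d with miR-30e. Among 27028 pairs of 233 miRNAs with a mean of at least 100 CPM, 64.7% did not overlap, so 5 of 10 is no more than pairs of miRNAs showed in general. The members kept closer to each other than most pairs did. The range of a log2 ratio over the 5 libraries had a median of 1.24 for member pairs and 3.90 for all pairs, from 0.48 for miR-30c with miR-30d to 2.40 for miR-30a with miR-30b.

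The movement of counts between members was also set beside that in other families. Between the Thy1+ and Thy1- means, 12.1% of the miR-30 counts changed members, against 11.0% between the Thy1+ replicates and 9.18% between the Thy1- replicates. The same measure between fractions was 5.31% for let-7 with miR-98, 4.34% for miR-26 and 14.9% for miR-29. Between the Thy1- replicates it was 14.9%, 4.63% and 9.41%, and between the Thy1+ replicates 4.45%, 1.73% and 6.80%, in the same order. For let-7 and miR-26 the Thy1- replicates thus moved more than the fractions did, so the families cannot be ranked by it. The largest miR-30 member held 25.9% to 32.8% of its family, while the largest of the miR-26 pair held 85.7% to 93.8%. None of these differences between families was tested.

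The next question was whether any member differed in level between the populations beyond the spread of replicates. The levels were compared with edgeR's quasi-likelihood test on all miRNAs with TMM scaling, which sets changes relative to the bulk of miRNAs. P-values were adjusted by Benjamini-Hochberg across every miRNA in the fit, and 0.05 was the threshold. Log2 fold changes are given with their standard error (SE).

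Between Thy1+ and Thy1-, 1 of the 5 members, miR-30a, was lower in Thy1+ and 0 were higher. Of all 425 miRNAs tested, 7.76% were lower and 20.2% higher (2.59% and 25.9% under scaling to total counts). The mean of miR-30a was 3032 ± 564 CPM in Thy1+ and 7116 ± 3707 in Thy1- (SD, n = 2). Its log2 fold change was -1.75 (SE 0.49, edgeR adjusted p = 0.0365). The call was kept with DESeq2 (-1.80, adjusted p = 0.00862), limma-voom (-1.69, adjusted p = 0.0400) and edgeR under RLE scaling (-1.80, adjusted p = 0.0353). It was also kept by edgeR with no filter on low counts, with tags of 0 mismatches and without tied tags (adjusted p = 0.00921, 0.0301 and 0.0338). Without Thy1- replicate 2 the value was -2.10. The call was lost under scaling to total counts (log2 -1.23, adjusted p = 0.123), with replicate number as a block (log2 -1.70, adjusted p = 0.0906) and without Thy1- replicate 1 (log2 -1.11, adjusted p = 0.110). It was also lost without Thy1+ replicate 1 (-1.73, adjusted p = 0.239) and without Thy1+ replicate 2 (-1.76, adjusted p = 0.257), where edgeR called 0 of all miRNAs (112 and 105 at an unadjusted p under 0.05). The rest had negative values that did not pass.

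miR-30e had a log2 fold change of -1.32 (SE 0.45, edgeR adjusted p = 0.0599), and DESeq2 put it past the threshold (-1.35, adjusted p = 0.0433), as did edgeR without Thy1- replicate 2 (-1.52, adjusted p = 0.0315). For miR-30d the value was -0.95 (SE 0.47, edgeR adjusted p = 0.165) and for miR-30c -0.93 (SE 0.54, edgeR adjusted p = 0.226). miR-30b had the smallest value and the largest error, -0.63 (SE 0.73, edgeR adjusted p = 0.543), and turned to 1.11 without Thy1- replicate 1. The median over the 5 members was -0.95, against -0.07 over all miRNAs tested. Under total scaling these medians were -0.45 and 0.51. By CPM, 2 of 5 members did not overlap between the fractions, miR-30a and miR-30e, both lower in Thy1+, against 20.2% of all miRNAs not overlapping and lower and 43.5% not overlapping and higher.

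**Figure D3:**
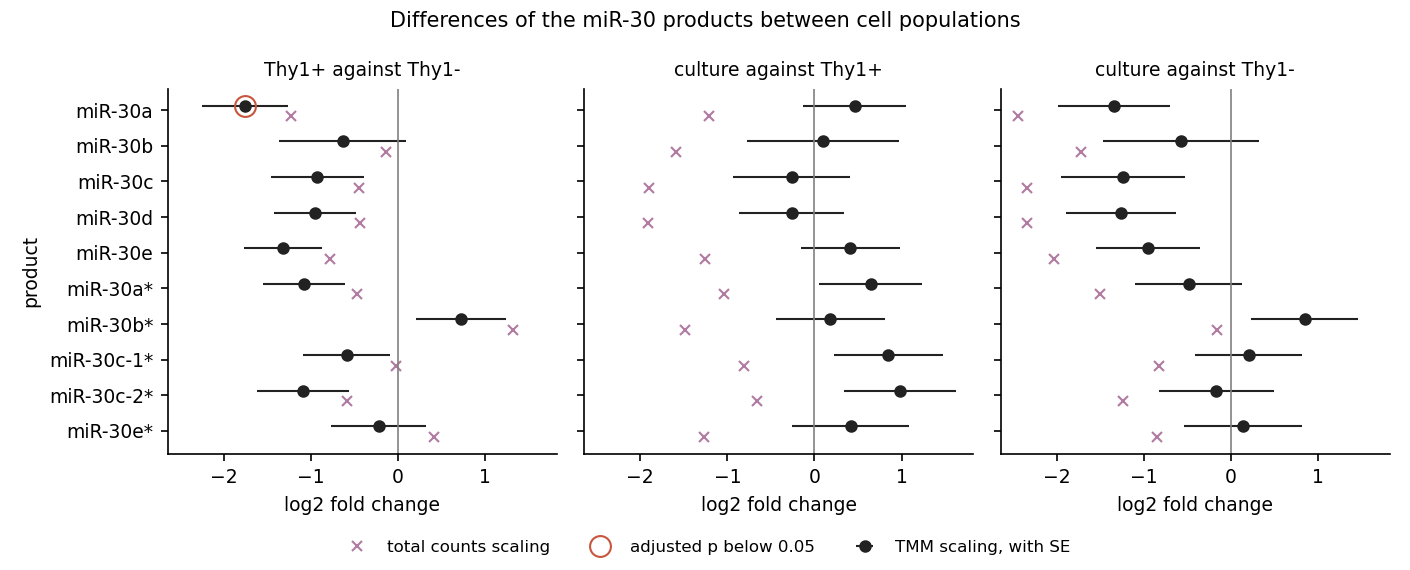
Log2 fold change (horizontal axis) of the 5 members and 5 other-arm products in the 3 comparisons, as dots with SE under TMM scaling and as crosses under scaling to total counts. A ring marks miR-30a at -1.75 in Thy1+ against Thy1-, the single product with an adjusted p below 0.05, and in both culture panels the crosses lie to the left of the dots.

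The culture held less miR-30 in CPM than either fresh fraction, apart from miR-30b in Thy1- replicate 2, and no member passed the test under TMM scaling against either. By CPM all 5 members lay below both Thy1+ libraries, as did 79.6% of the 470 miRNAs tested. In the test against Thy1+, 0 of 5 members passed with edgeR, 0 with DESeq2, 0 with limma-voom and 0 at an unadjusted p under 0.05, while edgeR called 13.4% of all miRNAs lower and 8.94% higher. The values were 0.46 for miR-30a (SE 0.60, edgeR adjusted p = 0.623), 0.41 for miR-30e (SE 0.56), 0.10 for miR-30b (SE 0.87), -0.26 for miR-30d (SE 0.60) and -0.26 for miR-30c (SE 0.68). Under total scaling all 5 were negative, from -1.21 for miR-30a to -1.91 for miR-30d (edgeR adjusted p = 0.0517), and 0 passed, while 35.7% of all miRNAs were called lower and 1.91% higher. The median of all miRNAs moved by -1.64 under that scaling, from -0.09 to -1.73, which is past the members' median of -1.58. The culture is a single library, assumed in the fit to vary like the fresh groups.

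Against Thy1-, 0 of 5 members passed with edgeR, DESeq2 or limma-voom, and 0 at an unadjusted p under 0.05, while edgeR called 16.8% of all miRNAs lower and 18.1% higher. By CPM, 4 members lay below both Thy1- libraries, as did 61.9% of all miRNAs tested. The values ran from -1.34 for miR-30a (SE 0.64, edgeR adjusted p = 0.137) through -1.26 for miR-30d, -1.24 for miR-30c and -0.96 for miR-30e to -0.57 for miR-30b (SE 0.90, edgeR adjusted p = 0.647). Their median was -1.24, against -0.15 over all miRNAs tested. Under total scaling 4 of 5 members were called lower, where 26.2% of all miRNAs were lower and 7.23% higher. There the log2 fold changes were -2.44 for miR-30a, -2.34 for miR-30c, -2.34 for miR-30d and -2.03 for miR-30e (edgeR adjusted p = 0.0319, 0.0490, 0.0300 and 0.0428). miR-30b did not pass there either (-1.72, edgeR adjusted p = 0.220). The comparisons of the culture with Thy1+ and with Thy1- share the culture library.

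The other arms were fewer for miR-30a, miR-30b and miR-30c, but not for miR-30e. miR-30e* stood at 3209 and 5424 CPM in Thy1+, 2194 and 4282 in Thy1- and 1791 in the culture, and exceeded miR-30e in 4 of 5 libraries. Its share of the counts of both arms was 54.6% and 62.0% in Thy1+, 25.5% and 52.5% in Thy1- and 58.8% in the culture (95% Clopper-Pearson interval 58.0% to 59.5%). Thy1- replicate 1 alone was below 50%. A set of 67 other hairpins had both arms counted in every library and names that differ by the asterisk alone. Of these, 2.99% to 4.48% had a higher asterisk arm in a given library. By naming convention the asterisk marks the rarer arm, so a low share was largely set by the choice of this set. It does not describe hairpins whose arms are named otherwise.

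miR-30a* stood at 1445 and 2237 CPM in Thy1+, 2238 and 2874 in Thy1- and 899 in the culture. It made up 35.4% and 39.5% of both arms in Thy1+, 18.7% and 39.0% in Thy1- and 40.7% in the culture (39.7% to 41.6%). Again the low value was that of Thy1- replicate 1. miR-30b* made up 6.91%, 5.01%, 1.04%, 8.29% and 6.10% of both arms in Thy1+ replicates 1 and 2, Thy1- replicates 1 and 2 and the culture, the lowest once more in Thy1- replicate 1. The fall of miR-30b from Thy1- replicate 1 to replicate 2 had no counterpart in its other arm, at 28.6 CPM and 40.9 CPM. In the Thy1+ libraries miR-30b* stood at 77.9 and 96.0 CPM, so Thy1- replicate 2 was below Thy1+ in both arms. The culture had 31.1 CPM of miR-30b*.

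For miR-30c, both other arms together made up 12.4% and 12.3% of all miR-30c hairpin products in Thy1+, 11.5% and 17.4% in Thy1- and 24.9% in the culture (23.5% to 26.3%). The culture was the highest and Thy1- replicate 1 the lowest. miR-30c-2*, from the hairpin near Mir30a, exceeded miR-30c-1*, from the hairpin near Mir30e, in all 5 libraries. It had 19.7 and 14.1 times as many counts in Thy1+, 31.2 and 18.9 times in Thy1- and 18.8 times in the culture. miR-30c-1* rested on 15 to 83 counts a library, and the arms need not be equally stable or equally well sequenced.

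Thy1- replicate 1 had the lowest other-arm share for all 4 members whose other arm is in the files. Among the 67 other hairpins it was the lowest library for 26.9% of them, and the culture was for 41.8%. Its median log2 ratio of other arm to member over those hairpins, -5.93, was close to that of Thy1- replicate 2, -5.96. Without Thy1- replicate 1, the other-arm share of miR-30e lay between 52.5% and 62.0% and that of miR-30a between 35.4% and 40.7%. None of the 5 other arms passed edgeR, DESeq2 or limma-voom in any of the 3 comparisons, nor an unadjusted p under 0.05 with edgeR. Their median log2 fold change was -0.59 in Thy1+ against Thy1-, 0.65 in the culture against Thy1+ and 0.14 in the culture against Thy1-. miR-30b* was the single product of the 10 with a positive value in Thy1+ against Thy1- (0.72, SE 0.52, edgeR adjusted p = 0.328).

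**Figure D4:**
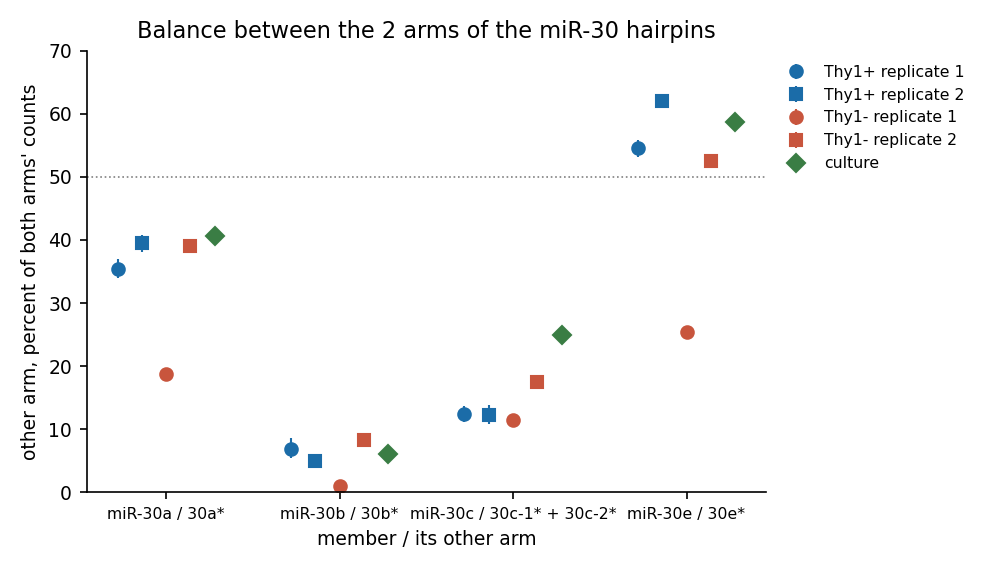
Counts of the other arm as a percent of both arms (vertical axis) for the 4 members with an other arm in the files (horizontal axis), by library, with 95% Clopper-Pearson intervals and a dotted line at 50%. The miR-30e points lie at 52.5% to 62.0% apart from Thy1- replicate 1 at 25.5%, which is also the lowest point for every other member shown.

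The members ended differently at the 3′ side. The files list no tag that begins before the first or ends after the last base of the annotated miRNA, so only shortened forms can be seen. Nearly all reads began at the first base, 98.0% to 99.9% over members and libraries, which keeps the seed in place. miR-30a* was looser, with 71.3% to 82.3% of its counts at the first base.

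miR-30a and miR-30e had a second common form that stops 3 bases short. It is shown here in the DNA letters of the tags, with the base that parts miR-30a from miR-30e in capitals.
miR-30a, 22 bases: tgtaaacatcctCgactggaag
miR-30a, 19 bases: tgtaaacatcctCgactgg
miR-30e, 22 bases: tgtaaacatcctTgactggaag
miR-30e, 19 bases: tgtaaacatcctTgactgg
Tags ending 3 bases short made up 27.7% and 11.3% of the miR-30a counts in Thy1+, 16.1% and 21.3% in Thy1- and 32.3% in the culture. For miR-30e they made up 23.0% and 16.1% in Thy1+, 22.7% and 23.1% in Thy1- and 29.9% in the culture. The culture was the highest and Thy1+ replicate 2 the lowest for both members, and the fresh groups overlapped for both.

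The other members rarely ended there. The same end made up 3.37% to 6.28% of miR-30d, 1.43% to 3.42% of miR-30c and 0% to 0.405% of miR-30b. In each of the 5 libraries both miR-30a and miR-30e were above all other members. Among the 228 to 304 names with at least 100 counts in a library, the median share with this end was 0.827% to 1.44%. miR-30a ranked between 1 and 14 and miR-30e between 2 and 9, while miR-30b ranked between 204 and 253. With tags of 0 mismatches alone, the range was 12.5% to 33.9% for miR-30a and 17.8% to 31.9% for miR-30e.

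miR-30b instead lost its last base. Tags 1 base short made up 28.1% and 18.7% of miR-30b in Thy1+, 19.1% and 37.6% in Thy1- and 20.6% in the culture. The highest was Thy1- replicate 2, the library in which miR-30b was scarcest. For the other members this form made up 3.78% to 14.3%. Tags ending at the annotated last base made up 75.7% to 91.8% of miR-30c, 76.5% to 81.0% of miR-30d and 56.6% to 78.7% of miR-30b, against 51.3% to 68.9% of miR-30a and 52.1% to 64.2% of miR-30e.

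**Figure D5:**
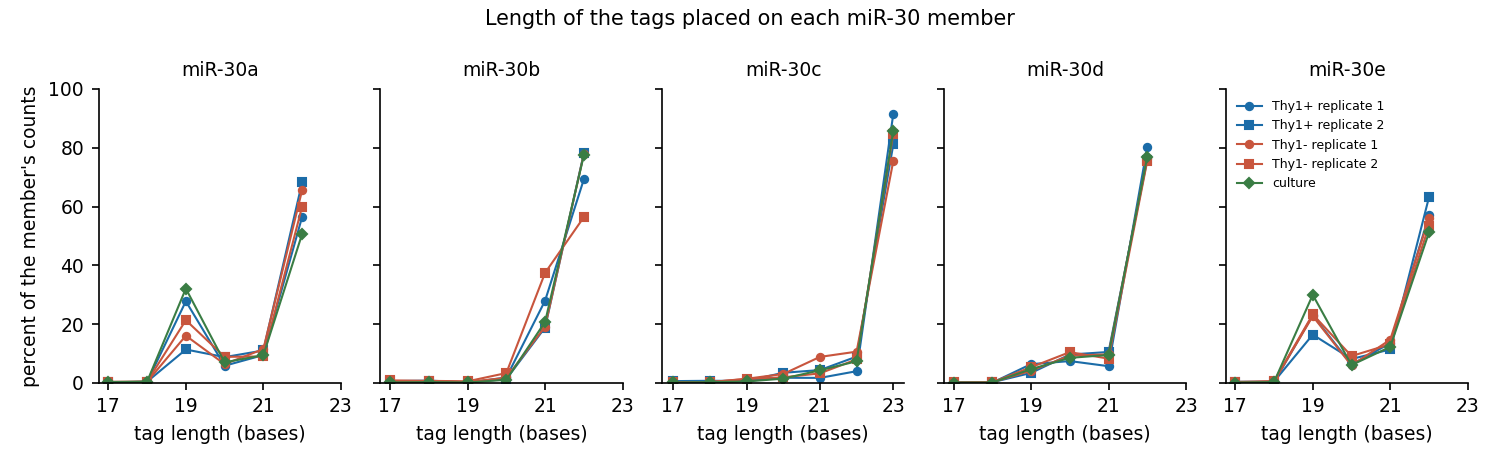
Percent of each member's counts (vertical axis) by tag length in bases (horizontal axis), 1 panel per member and 1 line per library. miR-30a and miR-30e show a second peak at 19 bases, of up to 32.3% for the tags ending there in miR-30a, which the miR-30b, miR-30c and miR-30d panels lack.

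Some full-length tags carried another last base than the miRNA. This could be measured for the 3 members with a sequence in the table. It held for 2.08% to 5.46% of full-length miR-30a, 3.87% to 9.03% of miR-30e and 1.59% to 6.68% of miR-30c. The culture was the highest for each of them. At the other positions of miR-30a and miR-30e the median share of changed bases was 0.118% to 0.328%, but position 11 stood out as well. It was changed in 10.4% of miR-30a in Thy1+ replicate 2 and 11.3% in Thy1- replicate 2, more than the last base there, and in 1.25% to 2.51% in the remaining libraries. In miR-30e it was changed in 7.34% and 9.29% in the replicate 2 libraries, also more than the last base. Where the last base was changed, the base found instead was mostly A in miR-30a (1.57% to 4.22%) and miR-30e (2.90% to 7.23%). Of the other arms, miR-30a* carried T as its last base in 9.56% to 22.7% of full-length tags and miR-30e* in 6.83% to 27.9%. Both had their lowest value in Thy1+ replicate 1 and their highest in Thy1- replicate 2. miR-30c-2*, whose annotated last base is T, had another last base in 0.529% to 2.06%.

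Because the members are so alike, mismatched and tied tags behind the split were checked. Neither can show reads exchanged between miR-30a and miR-30e, since a misread of base 13 can turn one into an exact tag of the other. Tags with no mismatch made up 84.4% to 96.1% of a member's counts, with the lower values in the replicate 2 libraries. For miR-30a, tags with 2 mismatches made up 2.86% and 2.79% in Thy1+ and Thy1- replicate 2 and 0.447% to 0.560% elsewhere. The labels name an original and an alternative Illumina library protocol without saying which library had which, and the part of the protocol in the shares, arm balances and tag ends was not tested. Tags tied between names made up at most 2.30% of a member's counts, in miR-30b of Thy1- replicate 2. Shares computed from tags of 0 mismatches or without ties differed from those above by less than the SD of the fresh groups in every case. In the culture they stayed within the counting interval for every member except miR-30b, at 10.8% with tags of 0 mismatches.

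The members were also set beside all other miRNAs with a mean of at least 100 CPM, by the root mean square difference of log2(CPM + 1) around each miRNA's own mean over the 5 libraries. By this measure miR-30c and miR-30d were each other's nearest member, at 0.17, and miR-30a and miR-30e likewise, at 0.22. miR-30b was farther from the other members, at 0.66 to 0.82, and nearer to miR-128 at 0.37 and miR-872* at 0.39. The other members still ranked between 15 and 27 of 232 names by closeness to miR-30b. For comparison, the median distance from a member to the other names was 1.01 to 1.27. The names nearest to the family total were miR-340-5p at 0.13, miR-149 at 0.20, miR-425 at 0.23, miR-15a at 0.30 and miR-320 at 0.31. The nearest to single members outside the family were miR-542-3p for miR-30a (0.22), miR-320 for miR-30e (0.25), miR-340-5p for miR-30c (0.21) and miR-340-5p for miR-30d (0.17). With 5 libraries of 3 kinds, many miRNAs can lie close by such a measure, and it is given as a description.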

How the data were processed

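Small RNA libraries were made from Trizol-isolated RNA with an original and an alternative Illumina small RNA protocol, per the labels' protocols, which do not say which library had which. The deposited files give, per distinct tag, raw read counts that the authors placed on mature mouse miRNAs of miRBase 12.0, per the file names and the file headers. Tags span 15 to 25 bases, and placements have up to 2 mismatches. DESeq is listed in the submitters' processing notes, with no role. Which aligner, genome build and adapter trimming were used is not given in the sources used here. Each tag was counted for the name of its placement, split equally between tied names (at most 8), and sums were rounded.

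Names were tested with edgeR 4.0.16 in R 4.3.3 (quasi-likelihood, TMM, filterByExpr, two-sided), after the test was tested on simulated data. Thy1+ and Thy1- were compared in the 4 fresh libraries, the culture in all 5. Alternatives were RLE and total scaling, no filter, DESeq2 1.42.0, limma-voom 3.58.1, tags of 0 mismatches, no tied tags, each fresh library left out, and replicate number as a block. Whether replicates came from separate animals is not in the labels. The p-values thus cover sample-to-sample spread, which may be technical. Named were the members, their other arms, names sharing the seed, their most frequent tags and the 5 names of most similar pattern. The members and lists were chosen with earlier results of these data known. Lists were 8 of cell type markers and 3 of comparison families.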

Additional observations from a re-analysis of the deposited data

How the results depend on the processing

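Each fresh group has 2 libraries and the culture 1, so most values rest on single libraries. The calls over all miRNAs between Thy1+ and Thy1-, 119 as reported, ranged from 0 to 137 when 1 fresh library was left out. For the culture against Thy1+ (105 as reported) that range was 0 to 120, and against Thy1- (164 as reported) 41 to 128. Both counts of 0 in Thy1+ against Thy1- came without a Thy1+ library, as did those of the culture against Thy1+ (142 and 117 at an unadjusted p under 0.05). The replicate block left 32 calls in Thy1+ against Thy1-, 28 higher and 4 lower. The labels tie the replicate numbers to no shared animal or run, and deviations of same-numbered libraries had a correlation of -0.060 over 425 miRNAs, so the block stayed an alternative. Among the miR-30 members, the replicate 2 libraries did share more mismatched tags. Over all miRNAs, counts with a mismatch made up 6.67% and 9.08% in Thy1+ and 7.69% and 7.52% in Thy1-. The block turned the direction of no member. Total scaling gave 177 calls for the culture against Thy1+. Under it, log2 fold changes turned to -1.21 for miR-30a, -1.58 for miR-30b, -1.25 for miR-30e, -1.03 for miR-30a*, -1.48 for miR-30b*, -0.81 for miR-30c-1*, -0.65 for miR-30c-2* and -1.27 for miR-30e*. Against Thy1- they turned to -0.16 for miR-30b*, -0.83 for miR-30c-1* and -0.85 for miR-30e*, and in Thy1+ against Thy1- to 0.42 for miR-30e*. These turns come with the shift of all miRNAs under that scaling. For the culture against Thy1- their median moved from -0.15 to -1.19, and the other shifts are given above. Leaving out 1 fresh library also turned directions. In Thy1+ against Thy1-, miR-30b ranged from -1.35 to 1.11 and miR-30e* from -0.55 to 0.54. In the culture against Thy1+, miR-30b ranged from -0.20 to 0.10, miR-30c from -0.88 to 0.084 and miR-30b* from -0.14 to 0.18. In the culture against Thy1-, miR-30b ranged from -1.30 to 0.79, miR-30c-1* from -0.14 to 0.39 and miR-30e* from -0.55 to 0.90. The share of miR-30e in Thy1+ minus Thy1- ranged from -5.22 to 0.706 points, and the miR-30b share of the culture was 10.8% with tags of 0 mismatches. The cause was not tested. The alternative values of the 5 members and 5 other arms were sorted by direction and side of the threshold. In Thy1+ against Thy1-, 110 kept both, 3 turned direction, 5 lost a call and 2 gained one. For the culture against Thy1+, 97 kept both and 13 turned direction. For the culture against Thy1-, 99 kept both, 7 turned direction and 4 gained a call. No product was called as reported in the culture comparisons, so keeping the side of the threshold there meant staying uncalled.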
